A study of Mus musculus with 2 samples.

Results

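Socs1, Socs2, Socs3, Cish, Pim1 and Bcl3 were followed through the cells of the mouse knee joint by single-cell RNA sequencing. They are 6 of the 32245 gene columns that both libraries share, and form a list of direct feedback genes and targets of STAT proteins; the rule that lists them uses no measured value, although the list was drawn up with earlier results of these data known. The control mice were Stat3fl/fl, with loxP sites on both Stat3 alleles and without Cre. The mutant library is labelled Acan-Cre+/Cre;Stat3fl/fl; by the methods of the study it carried a single tamoxifen-inducible Acan-CreERT2 allele, which drives recombination in cells that transcribe the aggrecan gene Acan, and tamoxifen was given at postnatal days 2 and 3. Both came from female mice on a C57BL/6 background at 1 month of age, each as a pool of 2 to 3 animals, from which live cells negative for CD31, Ter119 and CD45 were sorted. Other cells of the joint were not targeted by this Cre unless they, or the cells they descend from, transcribed Acan around the time of tamoxifen. The study's introduction states that growth plate chondrocytes can become osteoprogenitors, so which other classes carry the deletion is not known here.

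With 1 library per genotype there was no replicate check, and no test was possible. All differences below describe these 2 libraries. Genotype, pool, digestion and library cannot be told apart. Shares of cells are given with exact 95% binomial intervals (Clopper-Pearson), which cover counting error only.

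Cytokine receptors activate JAK kinases, which phosphorylate STAT transcription factors; dimeric STATs then bind DNA at palindromic sites of the form TTCNNNGAA. Among the genes they induce are the suppressors of cytokine signalling, which close a feedback loop. SOCS1 and SOCS3 inhibit JAK kinases directly, SOCS3 by docking on gp130 and related receptors. SOCS2 restrains growth hormone signalling, and CISH binds receptors that signal through STAT5, such as the erythropoietin receptor. Pim1 encodes a serine/threonine kinase that promotes survival and growth, and Bcl3 encodes a nuclear partner of NF-kB proteins.

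The genes lie on different chromosomes. On GRCm38 (Gencode M21), Socs1 is at chr16:10782240-10785536 (minus strand), Socs2 at chr10:95385362-95417180 (minus), Socs3 at chr11:117966079-117970047 (minus), Cish at chr9:107296026-107302784 (plus), Pim1 at chr17:29490753-29496112 (plus) and Bcl3 at chr7:19808462-19822770 (minus). Stat3 itself is at chr11:100885098-100939540 (minus).

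RefSeq windows of 300 bases, from 250 before to 50 after a start site, were at hand for 5 of the 6 genes, all but Socs2. The letters TTCNNNGAA, which read the same on both strands, were found in the windows of Cish and Socs3 and not in those of Socs1, Pim1 (2 windows) or Bcl3. Of all 32851 windows searched, 8.30% held at least 1 match and 0.457% held 2 or more, as did the window of Cish. These stretches are shown because they hold the motif to which STAT dimers are known to bind, with the matches in capitals, 5′ to 3′ along the gene, on GRCm38.p6.
Cish, chr9:107296656-107296685, plus strand: gttTTCCTGGAAagTTCTTGGAAatctgtc
Socs3, chr11:117969462-117969570, minus strand: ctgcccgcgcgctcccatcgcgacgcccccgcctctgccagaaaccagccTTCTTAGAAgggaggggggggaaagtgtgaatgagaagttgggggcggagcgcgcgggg
Counting the RefSeq start site of a window as base 1, the matches of Cish began at bases 1 and 12. That of Socs3 lay 146 to 154 bases before its RefSeq start site. By the Gencode coordinates given above, both stretches lie within the genes, so the place of the matches depends on the start site used. A match of letters is not evidence of binding in these cells.

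Cells were placed in classes by marker genes that do not include the 6 genes. A cell entered the chondrocyte gate with values above 0 for both Sox9 and Col2a1, and each other gate with at least 2 of 4 listed genes above 0. Cells in more than 1 gate were set aside. This gave, for control and mutant, 846 and 259 chondrocytes, 153 and 106 osteoblast-like, 262 and 121 fibroblast-like, 248 and 36 tenocyte-like, 106 and 67 marrow stromal-like and 66 and 37 mural-like cells. Erythroid-like cells numbered 1580 in control and 10 in mutant, too few of the latter to use. Markers left out of the gates were all highest in their own class in both libraries, except 1 of the 5 fibroblast markers.

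The 2 libraries differed in ways that run alongside the genotype. Median UMIs (unique molecular identifiers) per cell were higher in the mutant library in each of the 6 classes, from 1921 to 4855 in the control against 3933 to 8773. For many comparisons of the 6 genes, shares of cells with a value above 0 are therefore also given after thinning. Each cell with at least 1000 UMIs was thinned to 1000, and cells with fewer were left out of these shares. Cells above 5% mitochondrial counts made up 4.72% to 24.2% of the control classes and 7.44% to 46.2% of the mutant classes. A value for a globin gene was present in 49.2% (chondrocytes) to 69.8% (fibroblast-like) of control cells and in at most 2.99% of mutant cells, and the 4 globin genes together summed to 98.7 to 375 CPM (estimated UMIs of a gene scaled to a class total of 1000000) there and to at most 4.29 CPM in the mutant classes. Only 2 cell barcodes were shared between the libraries.

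Stat3, the targeted gene, was read first. In chondrocytes its level was 153 CPM (control) and 95.4 CPM (mutant), with a log2 ratio of mutant to control of -0.67, and 46.9% (43.5 to 50.4) and 45.2% (39.0 to 51.5) of cells had a value. These shares of Stat3 were not thinned to equal depth. The mutant-to-control log2 ratio was -0.32 in osteoblast-like, -0.10 in tenocyte-like, 0.15 in marrow stromal-like, 0.44 in fibroblast-like and 0.77 in mural-like cells. The tags come from the 3′ end of transcripts, and whether they fall in the deleted part was not established, so these levels do not show which cells had lost the gene.

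In the control library 4 of the 6 genes, Socs1, Socs2, Socs3 and Pim1, had their lowest level in erythroid-like cells, and 2 did once the 3 highest cells of each class were left out. Bcl3 was at 0.07 CPM there, with only mural-like cells, at 0, below it. Cish did not follow this order, since its level in chondrocytes was as low as in erythroid-like cells. The plot of levels by class shows these values beside those of the mutant library.

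**Figure D1:**
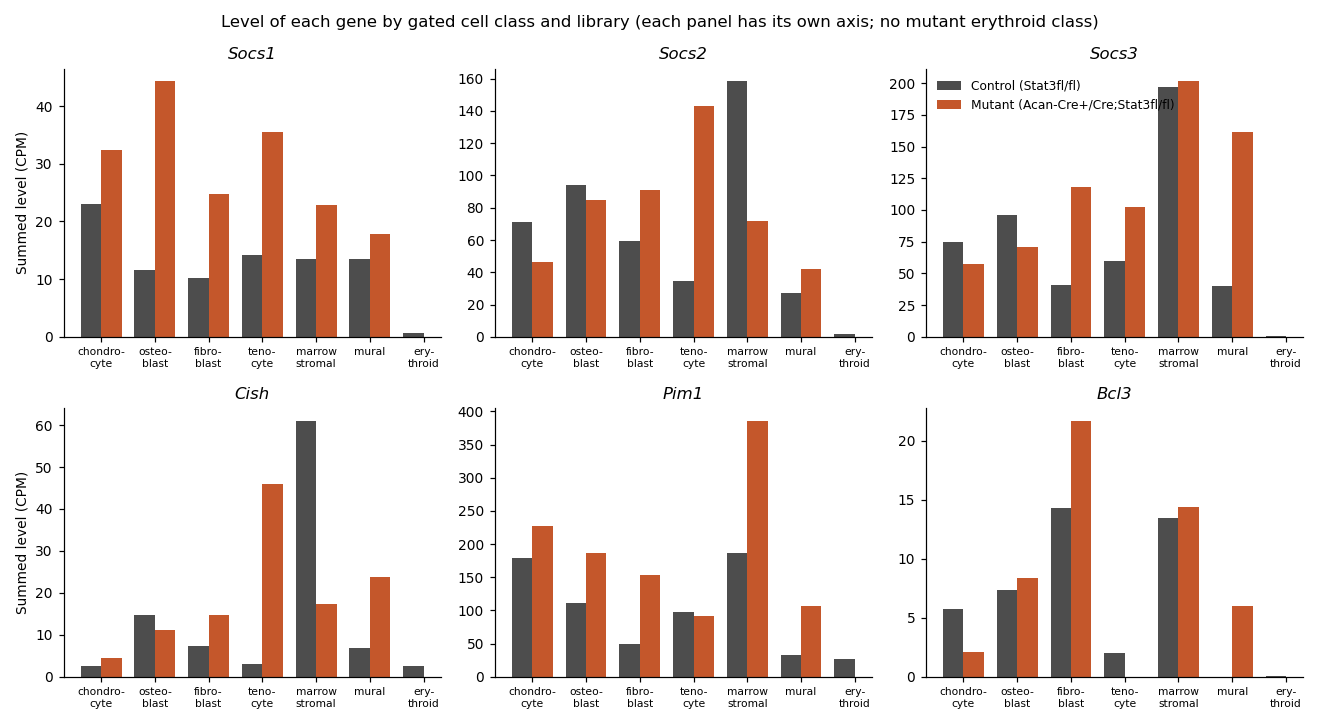
Summed level (CPM, linear axis from 0) of each of the 6 genes in the gated classes of the control (grey) and mutant (orange) library; bars have no error because there was 1 library per genotype. In the control library marrow stromal-like cells held the highest bar for Socs2, Socs3, Cish and Pim1, at 158, 197, 60.9 and 187 CPM, and erythroid-like cells were near 0 for Socs1, Socs2, Socs3 and Bcl3.

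Socs3, the inhibitor that docks on gp130, was at 197 CPM in control marrow stromal-like cells, where 38.7% (29.4 to 48.6) of cells had a value. It was at 96.2 CPM in osteoblast-like cells, 75.03 in chondrocytes, 59.9 in tenocyte-like, 40.7 in fibroblast-like and 39.8 in mural-like cells. Erythroid-like cells had 0.29 CPM, with a value in 0.443% (0.178 to 0.911) of 1580 cells at a median of 6341 UMIs. Neighbouring classes in this order had overlapping intervals on their shares of cells, down to mural-like cells, whose 9.09% (3.41 to 18.7) lay above the erythroid-like share.

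Socs2, the brake on growth hormone signalling, followed a like order at the top. Marrow stromal-like cells had 158 CPM, osteoblast-like cells 93.9, chondrocytes 71.1, fibroblast-like cells 59.7, tenocyte-like cells 34.3 and mural-like cells 27.1 CPM. Erythroid-like cells had 1.43 CPM and a value in 1.33% (0.825 to 2.02) of cells. No neighbouring pair in this order had separate intervals on its shares.

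Socs1, the JAK inhibitor induced strongly by interferons, had its highest control level in chondrocytes. There it was at 23.0 CPM, with a value in 9.69% (7.78 to 11.9) of cells. This interval overlaps that of tenocyte-like cells, 5.65% (3.12 to 9.29), and at equal depth the chondrocyte share was 1.59%, against 1.55% of fibroblast-like and 2% of marrow stromal-like cells, so the order is not read as a difference. The other classes lay between 10.2 CPM in fibroblast-like and 14.2 CPM in tenocyte-like cells, with shares that overlapped each other, and erythroid-like cells had 0.62 CPM (0.570%, 0.261 to 1.08).

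Cish, a STAT5 feedback gene, was concentrated in marrow stromal-like cells of the control library. Its level there was 60.9 CPM, with a value in 15.1% (8.88 to 23.4) of cells, against 14.8 CPM in osteoblast-like, 7.21 in fibroblast-like and 6.89 in mural-like cells. Tenocyte-like cells had 3.08 CPM and chondrocytes 2.52 CPM. The share of chondrocytes with a value, 1.30% (0.651 to 2.31), overlapped that of erythroid-like cells, 1.77% (1.18 to 2.55). The chondrocyte level rested on 10.7 estimated UMIs and is read here neither as expression nor as its absence.

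Pim1, the kinase, was at 187 CPM in marrow stromal-like cells and 179 CPM in chondrocytes of the control library. A value was present in 44.9% (41.5 to 48.3) of chondrocytes and 28.3% (19.98 to 37.9) of marrow stromal-like cells, the opposite order to the levels. Median UMIs per cell were 4855 and 2542, respectively. After thinning, the shares were 13.6% (11.3 to 16.1) and 16% (9.43 to 24.7), in the order of the levels but overlapping. No order is read between these 2 classes. Osteoblast-like cells had 111 CPM, tenocyte-like cells 97.0, fibroblast-like cells 49.7 and mural-like cells 32.7. Erythroid-like cells, at 27.3 CPM, had a value in 18.2% (16.4 to 20.2) of cells, above their shares for the SOCS genes. This share was above those of mural-like cells, 7.58% (2.51 to 16.8), and fibroblast-like cells, 12.2% (8.51 to 16.8), against the order of the levels. Both intervals overlap it narrowly. After thinning, the erythroid-like share was 3.18% (2.37 to 4.17), against 4.62% (0.962 to 12.9) of mural-like and 1.55% (0.424 to 3.92) of fibroblast-like cells. These intervals overlap too, so no order is read among these 3 classes.

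Bcl3, the NF-kB partner, was sparse. Its highest control levels were 14.3 CPM in fibroblast-like cells (4.96%, 2.67 to 8.34) and 13.4 CPM in marrow stromal-like cells (3.77%, 1.04 to 9.38). Chondrocytes had 5.77 CPM and osteoblast-like cells 7.32. None of 66 control mural-like cells had a value, which allows a share of up to 4.55% (3 cells of the total; the exact interval reaches 5.44%), and none of 36 mutant tenocyte-like cells did, which allows up to 8.33% (9.74% by the exact interval).

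The comparison between genotypes set these levels in the mutant library beside those of the same class in the control. Of 36 pairs of gene and class, 31 had a mean of at least 10 CPM over the libraries and were compared; the mutant library was at least 2-fold higher in 11 of them and at least 2-fold lower in 2. Over all genes compared, 3.03% to 15.7% were at least 2-fold higher and 7.06% to 20.4% at least 2-fold lower, by class. In chondrocytes, the class that the Cre targets, none of the 4 genes that could be compared reached 2-fold in either direction. The same threshold was passed upward by 3.03% and downward by 7.06% of the 7496 genes compared in that class. Relative to the median of genes present in both libraries, ratios in the 6 classes shift by 0.08 to 0.18 upward, because that median was between -0.18 and -0.08.

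In control and mutant chondrocytes Pim1 was at 179 and 227 CPM, with a log2 ratio of 0.34. A value was present in 44.9% (41.5 to 48.3) and 51.4% (45.1 to 57.6) of cells. After thinning to 1000 UMIs the shares were 13.6% (11.3 to 16.1) and 14.98% (10.8 to 20.1), which overlap. A single mutant chondrocyte held 29.0 estimated UMIs of Pim1, and the 3 highest cells held 13.3% of its mutant total; without the 3 highest cells of each library the ratio was 0.20.

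Socs1 was at 23.0 and 32.4 CPM in control and mutant chondrocytes (log2 ratio 0.48). Its share of cells with a value was 9.69% (7.78 to 11.9) against 20.1% (15.4 to 25.5), and 1.59% (0.848 to 2.699) against 4.05% (1.96 to 7.32) after thinning. The first pair of intervals is separate and the second overlaps.

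Socs2 and Socs3 had lower values in mutant chondrocytes, short of 2-fold. For Socs2 the levels were 71.1 and 46.3 CPM (-0.61) and the shares 24.2% (21.4 to 27.3) and 24.3% (19.2 to 30.02). Its thinned shares were 6.72% (5.10 to 8.65) and 4.86% (2.54 to 8.33). For Socs3 the levels were 75.03 and 57.8 CPM (-0.37) with shares of 25.9% (23.0 to 29.0) and 30.1% (24.6 to 36.1). Its thinned shares were 5.86% (4.35 to 7.70) and 7.69% (4.69 to 11.8). All these pairs of intervals overlap. Relative to the median gene the ratios were -0.43 and -0.19. With all Sox9+Col2a1+ cells kept, also those in other gates, the Socs3 ratio was -0.02. Cish, at 2.52 and 4.53 CPM, and Bcl3, at 5.77 and 2.07 CPM, were below the minimum level.

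**Figure D2:**
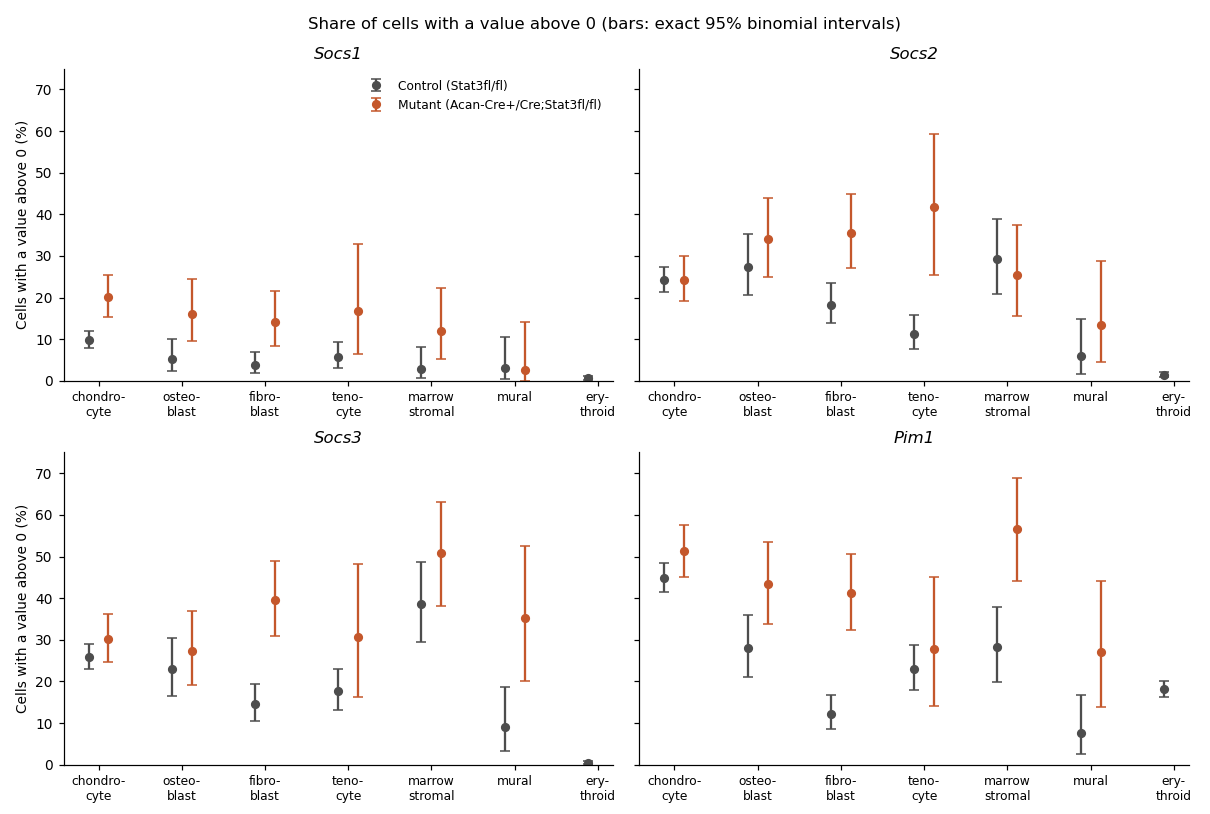
Percent of cells with a value above 0 for Socs1, Socs2, Socs3 and Pim1 by gated class; points are libraries (grey control, orange mutant) and bars are exact 95% binomial intervals. The intervals of the libraries are separate for Socs3 and Pim1 in fibroblast-like cells, at 14.5% against 39.7% and 12.2% against 41.3%, while those for Socs2, Socs3 and Pim1 in chondrocytes overlap.

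In fibroblast-like cells all 6 genes could be compared, and all 6 had higher levels in the mutant library. The ratio was at least 2-fold for 3 of them, beside 5.33% of 8338 genes at least 2-fold higher and 9.41% at least 2-fold lower. The median log2 ratio of the 6 was 1.08, against -0.14 over all genes compared in this class.

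In control and mutant fibroblast-like cells Pim1 was at 49.7 and 154 CPM (log2 ratio 1.61). A value was present in 12.2% (8.51 to 16.8) of 262 control and 41.3% (32.4 to 50.6) of 121 mutant cells. The thinned shares were 1.55% (0.424 to 3.92) and 16.1% (9.98 to 23.997), so the intervals stay separate at equal depth. In the mutant library 1 cell held 18.0 estimated UMIs; without the 3 highest cells of each library the ratio was 1.502, and in cells without a globin value it was 1.39.

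Socs3 was at 40.7 and 118 CPM (1.52) in the same cells, with a value in 14.5% (10.5 to 19.4) and 39.7% (30.9 to 49.0). After thinning these became 5.04% (2.71 to 8.46) and 10.2% (5.37 to 17.1), which overlap. Socs1 was at 10.2 and 24.8 CPM (1.21), or 3.82% (1.85 to 6.91) and 14.05% (8.40 to 21.5) of cells, which are separate; the thinned shares of 1.55% (0.424 to 3.92) and 3.39% (0.931 to 8.45) overlap.

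Socs2 (59.7 and 91.1 CPM, 0.60), Cish (7.21 and 14.8 CPM, 0.94) and Bcl3 (14.3 and 21.6 CPM, 0.57) did not reach 2-fold in fibroblast-like cells. These depend on the setting: Cish was at least 2-fold higher in 8 of 10 alternatives, Bcl3 in 2 and Socs2 in 1. Genes that tissue digestion is known to induce moved alongside: 16 of 19 in a list of them were above 0 on the log2 scale, 5 by at least 2-fold, with a median of 0.69, and their summed levels were 14691 and 17166 CPM. Of 21 further STAT target genes, Stat3 itself among them, 17 could be compared, and 9 were at least 2-fold higher, with a median of 1.01. The part of digestion in the values of Pim1, Socs3 and Socs1 was not tested. Mitochondrial shares differed little in this class, with 6.87% and 7.44% of cells above 5%. The 5 fibroblast markers not in the gate summed to 27749 CPM (control) and 17979 CPM (mutant), the 5 osteoblast markers to 11231 and 6173 CPM, and the 6 leukocyte markers, 3 of them at 0 in each library, to 4.96 and 30.5 CPM. Their part in the ratios was not tested.

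In osteoblast-like cells Socs1 alone passed 2-fold among the 5 genes compared, beside 5.21% of 7671 genes at least 2-fold higher and 12.1% lower. Socs1 was at 11.6 and 44.3 CPM (log2 ratio 1.85), with a value in 5.23% (2.28 to 10.0) of 153 and 16.0% (9.63 to 24.4) of 106 cells. These intervals overlap narrowly, as do those of the thinned shares, 0.680% (0.0172 to 3.73) and 5.10% (1.68 to 11.5). Pim1 was at 111 and 186 CPM (0.75), Socs3 at 96.2 and 70.8 CPM (-0.44) and Cish at 14.8 and 11.1 CPM (-0.38). Socs2, at 93.9 and 84.9 CPM, had a ratio of -0.14 that turned to 0.03 relative to the median gene.

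In tenocyte-like cells, of which the mutant library held 36, Socs2 was at 34.3 and 143 CPM (2.03). A value was present in 11.3% (7.63 to 15.9) and 41.7% (25.5 to 59.2) of cells, and in 4.44% (2.23 to 7.80) and 22.2% (10.1 to 39.2) after thinning. Both pairs of intervals are separate. Socs1 was at 14.2 and 35.5 CPM (1.27), resting on 6.92 estimated UMIs in the mutant cells; without the 3 highest cells of each library it was 0.51. Beside these 3 genes past 2-fold of 5 compared, 12% of 8148 genes were at least 2-fold higher and 15.7% lower.

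Cish, the third of them, rested on 2.95 estimated UMIs in 3 control tenocyte-like cells and on 6 mutant cells. Its levels were 3.08 and 46.0 CPM, and the shares were 1.21% (0.250 to 3.49) and 16.7% (6.37 to 32.8), which are separate; thinned shares of 0.403% and 5.56% overlapped. Socs3, at 59.9 and 102 CPM (0.76), and Pim1, at 97.0 and 91.0 CPM (-0.09), did not reach 2-fold, although Socs3 did in 3 of 10 alternatives. Cells above 5% mitochondrial counts were 12.1% of the control and 36.1% of the mutant class, and with these left out the Socs2 ratio was 2.44. Markers of several other classes were lower in mutant tenocyte-like cells. The 5 osteoblast markers summed to 48488 and 23052 CPM and the 5 fibroblast markers to 8157 and 2813 CPM. The 10 chondrocyte markers summed to 3661 and 1162 CPM and the 5 mural markers to 259 and 71.1 CPM. Of these, 1 chondrocyte and 3 mural markers were at 0 in the mutant cells. The 5 tenocyte markers not in the gate were also lower, at 11863 and 9139 CPM. Higher were the 5 articular chondrocyte markers, at 6337 and 6903 CPM, and the 5 Schwann markers, at 30.6 and 75.9 CPM, with 3 and 4 of the latter at 0. Their part in the ratios was not tested.

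**Figure D3:**
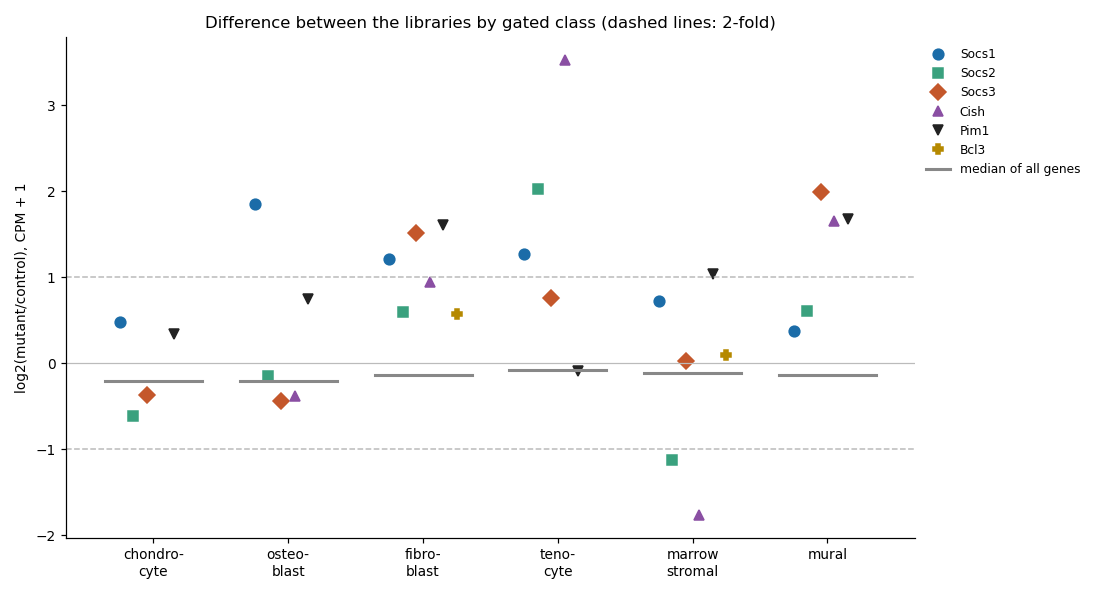
Log2 ratio of mutant to control level (CPM + 1) in 6 gated classes for the pairs with a mean of at least 10 CPM; each symbol is a gene, grey bars are the median of all genes compared and dashed lines mark 2-fold. All 6 symbols lie above 0 in fibroblast-like cells, while in chondrocytes all 4 lie within the dashed lines and in marrow stromal-like cells Socs2 and Cish lie below -1.

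Marrow stromal-like cells were the class in which members passed 2-fold on opposite sides. Pim1 was at 187 and 385 CPM (log2 ratio 1.04), with a value in 28.3% (19.98 to 37.9) and 56.7% (44.0 to 68.8) of cells, which are separate; thinned shares of 16% (9.43 to 24.7) and 28.8% (18.3 to 41.3) overlap. Cish was at 60.9 and 17.3 CPM (-1.76), the latter resting on 5.99 estimated UMIs in 6 cells. Socs2 was at 158 and 71.9 CPM (-1.13). In this class 11% of 8791 genes were at least 2-fold higher and 16% at least 2-fold lower, beside 1 and 2 of the 6 members.

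The shares for the lower pair overlapped: Cish had a value in 15.1% (8.88 to 23.4) and 8.96% (3.36 to 18.5) of cells, and Socs2 in 29.2% (20.8 to 38.9) and 25.4% (15.5 to 37.5). Thinned shares overlapped as well, at 7% (2.86 to 13.9) and 3.03% (0.369 to 10.5) for Cish. For Socs2 they were 16% (9.43 to 24.7) and 7.58% (2.51 to 16.8). With cells of several gates kept, the Socs2 ratio was -0.35. Socs3, the highest SOCS level of this class, was at 197 and 201 CPM (0.03). Socs1 (13.4 and 22.9 CPM, 0.73) and Bcl3 (13.4 and 14.4 CPM, 0.09) rested on at most 7.95 estimated UMIs per library, and Socs1 was at least 2-fold higher in 4 of 10 alternatives. Cells above 5% mitochondrial counts were 4.72% of the control and 37.3% of the mutant class, and with these left out the ratios were -2.03 for Cish and -1.23 for Socs2. The 5 mural markers summed to 45.1 CPM in control and 826 CPM in mutant marrow stromal-like cells, 2 of them at 0 in each. The 10 chondrocyte markers summed to 913 and 212 CPM and the 5 fibroblast markers to 2807 and 828 CPM, with 1 of each at 0 in the mutant cells. The part of these markers in the ratios was not tested.

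Mural-like cells were few and shallow. Socs3 was at 39.8 and 161 CPM (1.99), with a value in 9.09% (3.41 to 18.7) of 66 and 35.1% (20.2 to 52.5) of 37 cells, and Pim1 was at 32.7 and 107 CPM (1.68), with 7.58% (2.51 to 16.8) and 27.0% (13.8 to 44.1). The first pair of intervals is separate and the second overlaps. After thinning, the Socs3 shares of 4.62% (0.962 to 12.9) and 14.3% (4.81 to 30.3) overlapped as well, as did those of Pim1, 4.62% (0.962 to 12.9) and 17.1% (6.56 to 33.6). Cish, at 6.89 and 23.9 CPM, rested on a single estimated UMI in the control, Socs3 on 5.77 and Pim1 on 4.73. Cells above 5% mitochondrial counts were 24.2% of the control and 45.9% of the mutant class. The 5 osteoblast markers summed to 2252 and 6021 CPM and the 5 mural markers not in the gate to 8188 and 8493 CPM. The 5 articular chondrocyte markers summed to 999 and 79.9 CPM, with 3 at 0 in the mutant cells. The part of these in the ratios was not tested. In this class 15.7% of 8360 genes were at least 2-fold higher and 20.4% lower, beside 3 and 0 of 5.

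Not every Sox9+Col2a1+ cell is of the same kind, and the levels of these genes varied within the gate. A cell counted as having a marker set with at least 2 of its 5 genes above 0. Cells were split by whether they had articular markers only (321 control and 114 mutant cells), hypertrophic markers only (109 and 35) or neither (401 and 101). Those with both sets were left out, and a cell with neither set may hold a single marker of each. In the control library Pim1 was at 216 CPM in cells with articular markers, 63.2 CPM in cells with hypertrophic markers and 205 CPM in cells with neither. Its shares in the first and second were 40.2% (34.8 to 45.8) and 33.0% (24.3 to 42.7), which overlap. The share in cells with neither was 51.1% (46.1 to 56.1), separate from that with hypertrophic markers. After thinning, the shares were 14.6% (10.96 to 18.99) with articular markers, 5.50% (2.05 to 11.6) with hypertrophic markers and 14.97% (11.5 to 18.999) with neither. The hypertrophic share was again the lowest, and its interval overlaps both others narrowly. Stat3 levels had the same order as those of Pim1, at 177, 83.6 and 166 CPM. Socs3 did not vary to this degree, at 73.9, 66.5 and 77.1 CPM.

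In the mutant library the low Pim1 level in cells with hypertrophic markers was present too, at 84.5 CPM against 283 CPM with articular markers and 253 CPM with neither. Socs1 was at 13.7 CPM in control and 32.6 CPM in mutant cells with articular markers, with a value in 5.61% (3.36 to 8.72) and 21.1% (13.98 to 29.7) of cells, which are separate. In cells with hypertrophic markers it was at 16.2 and 12.7 CPM, and with neither at 32.1 and 39.6 CPM. The thinned shares of Socs1 in cells with articular markers were 0.623% (0.0755 to 2.23) and 2.65% (0.551 to 7.56), which overlap.

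The direction of the Socs2 difference was not the same in each subset. It was at 46.6 and 60.9 CPM in control and mutant cells with articular markers, at 61.7 and 31.9 CPM with hypertrophic markers, and at 90.1 and 31.2 CPM with neither. The shares in the last subset were 28.9% (24.5 to 33.6) and 18.8% (11.7 to 27.8), which overlap. Socs3 was at 73.9 and 67.8 CPM with articular markers, 66.5 and 27.3 CPM with hypertrophic markers and 77.1 and 59.5 CPM with neither. The mutant cells with hypertrophic markers held only 12.8 estimated UMIs of Socs3 and 14.9 of Socs2, with 73.5% of the latter in 3 cells. Stat3 was lower in the mutant library in each subset, at 111, 57.3 and 93.7 CPM.

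**Figure D4:**
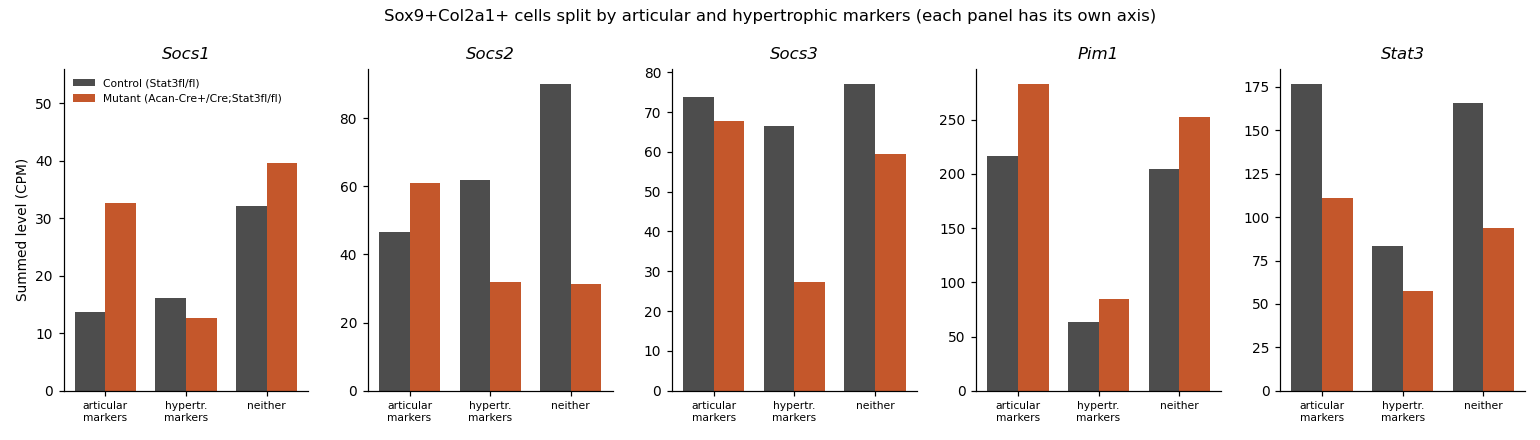
Summed level (CPM, linear axis from 0) of Socs1, Socs2, Socs3, Pim1 and Stat3 in Sox9+Col2a1+ cells with articular markers only, hypertrophic markers only or neither, in the control (grey) and mutant (orange) library. Pim1 bars are lowest in cells with hypertrophic markers in both libraries (63.2 and 84.5 CPM), and the Socs2 bars of cells with neither marker set stand at 90.1 and 31.2 CPM.

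The authors' own selection of cells was a further way to draw the class. Within the chondrocyte gate used here they marked 430 control and 257 mutant cells, and these were exactly the cells without a value for any of the 4 globin genes. In the marked cells Pim1 was at 177 and 227 CPM, Socs1 at 20.2 and 32.5 CPM, Socs2 at 67.7 and 46.4 CPM and Socs3 at 80.9 and 57.9 CPM. None reached 2-fold. The 416 control cells left unmarked had 184 CPM of Pim1, 27.1 of Socs1, 76.2 of Socs2 and 66.4 of Socs3.

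Other parts of the JAK-STAT pathway were read in chondrocytes from a list of 38 genes that shares no member with the 6. Of these 29 could be compared, and 24 lay below 0 on the log2 scale, with a median of -0.32. Over all 7496 genes compared in chondrocytes the median was -0.20, so most of them lay below 0 as well. The count is therefore not read as a change of the pathway. Of all these genes, 3.03% were at least 2-fold higher and 7.06% at least 2-fold lower. Il11ra1, which encodes the receptor subunit for interleukin 11, was at least 2-fold higher, at 27.3 and 55.9 CPM (1.01). At least 2-fold lower were Osmr, which encodes the oncostatin M receptor subunit that pairs with gp130, at 96.3 and 21.7 CPM (-2.10), Stat5a, at 16.5 and 5.402 CPM (-1.45), and Pias4, which encodes a SUMO ligase known as an inhibitor of activated STAT, at 14.4 and 6.65 CPM (-1.01).

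Among 17 further STAT target genes that could be compared in chondrocytes, the log2 ratios had a median of 0.01. Cebpb (41.5 and 167 CPM, 1.98), Timp1 (80.4 and 254 CPM, 1.65) and Pim3 (21.4 and 49.5 CPM, 1.17) were at least 2-fold higher. Igf1, the growth factor, was lower, at 497 and 36.5 CPM (-3.73). In the digestion-induced list, 2 of 19 genes, Ier3 and Hspb1, were at least 2-fold higher and none lower, with a median of -0.09. In chondrocytes both medians lay near 0, against 1.01 and 0.69 in fibroblast-like cells.

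The same 2 lists were higher in the mutant library in the other classes in which members passed 2-fold. The digestion-induced list had a median log2 ratio of 0.40 in osteoblast-like, 0.41 in tenocyte-like, 0.23 in marrow stromal-like and 0.47 in mural-like cells. The medians of the further STAT targets were 0.58, 1.18, 0.20 and 0.87, and those of the 6 genes were -0.14, 1.27, 0.06 and 1.66. The part of digestion and of mitochondrial shares in these values was not tested.

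Profiles over classes were compared across 13 pools, each a class in a library with at least 30 cells. The pools share libraries and depth, so correlations describe these pools and carry no p-value. Among 10310 genes with at least 20 CPM in some pool, the 3 with profiles most like Socs3 were Stat3 (Pearson r = 0.96), Ier5l (0.95) and Gpx8 (0.95). The single erythroid pool, low in both genes, weighs on the first: over the other 12 pools Socs3 and Stat3 had r = 0.73.

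For Socs1 the most alike were Jund (0.96), Saraf (0.95) and Ier3 (0.94), and for Socs2 Ctsh (0.95), Trp53bp2 (0.94) and Ryk (0.92). Pim1 was most like Zfp655 (0.91), Myc (0.90), which encodes the transcription factor, and Inafm1 (0.90). Cish was most like Mmp11 (0.89), and Bcl3 like Med13 and Zbp1 (0.90 each). These lists depend on the erythroid pool: over the other 12 pools the genes most like Socs1 were Lor (0.86), Rpl11 (0.85) and Rbm3 (0.85), and those of Socs2, Pim1 and Bcl3 also changed, to Trp53bp2, Odc1 and Wdr55 in first place. Within the 6 genes the highest was Socs2 with Socs3 (0.91), which was 0.56 without the erythroid pool; Cish with Socs3 was 0.62 and 0.72, respectively.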

How the data were processed

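The authors used Partek Flow, and per the submitters' processing notes reads were aligned with STAR 2.7.3a to mm10; their methods add counting of unique UMIs and removal of ambient RNA with SoupX. Gene values as deposited are log2(CPM + 1). Each cell also has a deposited total, an estimated count that ambient removal left fractional, with mitochondrial and ribosomal content which the authors give as a percent, a deposited score that counts expressed genes, and a mark for cells that the authors chose. The tables hold cells above the mitochondrial limit of the methods (694 control and 492 mutant cells above 5%), so the processing step they come from is not known, and all cells were used.

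Values were turned back into estimated UMIs with each cell's total. Of values above 0, 74.9% (control) and 97.3% (mutant) came within 0.1 of a whole number, so no count model was used. They were summed per class and library (23576416 UMIs in 4903 control and 7452649 in 1340 mutant cells) and divided by the class total to give CPM. Differences are log2 of mutant over control CPM after adding 1 CPM, for genes with a mean of at least 10 CPM and classes with at least 20 cells. With 1 library per genotype no p-value was computed. Alternatives were the weighting of cells, mitochondrial and globin filters, doublets, Leiden clusters made without the 6 genes (scanpy 1.11.5), the scaling, the pseudocount and leaving out the highest cells. Calculations (Python 3.11.15, scipy 1.17.1) were checked on simulated data, for highly expressed genes of the chondrocyte, fibroblast-like and mural-like classes only. That check does not cover values that rest on few UMIs.

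All 6 genes, Stat3, and members of the fixed lists past 2-fold in chondrocytes are named, with the 3 genes most alike in profile; 1 gene of the lists is not reported here. The genes and lists were chosen with earlier results of these data known. Promoter windows are from RefSeq and coordinates from Gencode M21, another release than the authors' annotation.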

Additional observations from a re-analysis of the deposited data

Results flagged for a closer look

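Socs2 and Cish each lay past 2-fold on opposite sides in different classes. These differences between classes were not tested, since there was 1 library per genotype. Socs2 had a log2 ratio of mutant to control of 2.03 in tenocyte-like cells and -1.13 in marrow stromal-like cells. Cish had 3.53 in tenocyte-like cells and 1.66 in mural-like cells against -1.76 in marrow stromal-like cells. The control side of the first Cish value rested on 2.95 estimated UMIs and that of the second on a single UMI, so both sizes depend on the pseudocount; the mutant tenocyte-like and mural-like cells numbered 36 and 37. The mutant side of the Cish value in marrow stromal-like cells rested on 5.99 estimated UMIs in 6 of 67 cells.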

How the results depend on the processing

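Of 318 log2 ratios recomputed under an alternative, 285 kept their side of 2-fold, but 18 of these, in 8 pairs and all within 2-fold, had the opposite sign, among them Socs2 in osteoblast-like and Pim1 in tenocyte-like cells. Below 2-fold fell 13, above it rose 18, 1 uncalled ratio of Socs1 in mural-like cells moved, and Cish in mural-like cells turned to -0.22 when cells of several gates were kept, a setting chosen after seeing the data. With that setting 1 pair instead of 2 was at least 2-fold lower. In the reported setting and all 10 alternatives run for their classes, Socs1 in osteoblast-like, Socs3 and Pim1 in fibroblast-like, Socs2 and Cish in tenocyte-like and Cish in marrow stromal-like cells stayed past 2-fold. The lowest values of the other 7 pairs fell within 2-fold: 0.79 for Socs1 in fibroblast-like, 0.51 for Socs1 in tenocyte-like, -0.35 for Socs2 and 0.85 for Pim1 in marrow stromal-like, and 0.65 for Socs3 and 0.81 for Pim1 in mural-like cells, beside Cish above. Without the 3 highest cells, 2 instead of 4 of the 6 genes had a lower level in erythroid-like cells than in each of the 6 other control classes. JAK-STAT genes lower in mutant chondrocytes numbered 7 at 1.5-fold and 5 with no minimum level, instead of 3; fewer or more genes passed by construction. No paired analysis was possible because each genotype had 1 library, and for the same reason no replicate could be left out. Scrublet called 74 control cells (1.51%) and 2 mutant cells (0.149%), the latter too few to count as a working call. Depth limits Cish, Bcl3 and Socs1 most: several of their values rest on fewer than 10 estimated UMIs.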

Other observations

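Cells in no gate, 1313 control and 550 mutant, also held these genes. Pim1 was at 65.8 and 195 CPM in them, Socs3 at 37.2 and 101 CPM, Socs2 at 24.7 and 50.3 CPM and Socs1 at 7.29 and 25.1 CPM. A value of Pim1 was present in 12.8% (11.04 to 14.7) and 23.3% (19.8 to 27.0) of them. Over all cells Pim1 was at 75.9 CPM in 4903 control and 202 CPM in 1340 mutant cells. Erythroid-like cells, low in these genes, numbered 1580 (control) and 10 (mutant), and in chondrocytes alone Pim1 was at 179 and 227 CPM.

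Within the control erythroid-like cells, 838 had at least 2 of 5 markers of early erythroid progenitors above 0 and 742 had fewer. Pim1 was at 25.9 CPM in the former and 29.6 CPM in the latter, with a value in 20.5% (17.8 to 23.4) and 15.6% (13.1 to 18.4) of cells. These shares run opposite to the levels, but those at equal depth did not. After thinning they were 2.39% (1.47 to 3.67) and 4.08% (2.77 to 5.78), which overlap. Cish was at 2.85 and 2.18 CPM, with a value in 2.27% (1.37 to 3.52) and 1.21% (0.556 to 2.29). The intervals overlapped for both genes.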
